A study of Mus musculus with 14 samples.

Results

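The genes described here are 9 amino acid transporters of the cell surface, followed through SOX9 reprogramming of mouse epidermal stem cells. They were chosen by name and function out of 54332 genes in the table: Slc3a2, Slc7a5, Slc7a11, Slc7a1, Slc1a4, Slc1a5, Slc38a1, Slc38a2 and Slc6a9. RNA-seq was performed on EpdSCs (stem cells of the epidermis between hair follicles) in 10 libraries with 2 replicates at each of 5 timepoints. All donors were CD1 mice, labelled male, and carried K14rtTA together with TRE-myc-Sox9, so that a keratin 14 promoter drove the DOX-dependent activator of MYC-tagged Sox9 in basal keratinocytes. Back skin cells were sorted as negative for CD31, CD45, CD117, CD140a and CD34 and high for CD49f and Ly6A. D0 cells came from mice at postnatal day 21, before the transgene was switched on. W1, W2 and W6 cells came from mice kept on doxycycline (DOX) for 1, 2 and 6 weeks after an injection at postnatal day 21, at postnatal days 28, 35 and 63. W12 cells came from neonatal skin of this genotype that was grafted onto immunocompromised female hosts, left to heal and then exposed to DOX for 12 weeks. Grafting cannot be told apart from 12 weeks of SOX9, nor can age from time on DOX up to W6, since age-matched controls without the transgene were not analysed here. How many mice went into a library was not given in the sources used here.

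Free amino acids enter cells largely through membrane carriers of this kind. Slc3a2 encodes the heavy chain CD98, a glycoprotein that escorts several light chains of the Slc7 family to the membrane and also binds beta integrins. Among its light chains, Slc7a5 (LAT1) exchanges large neutral amino acids such as leucine, and Slc7a11 (xCT) takes up cystine in exchange for glutamate. Slc7a1 (CAT1) carries arginine and lysine without a heavy chain. Slc1a4 (ASCT1) and Slc1a5 (ASCT2) are sodium-dependent exchangers of small neutral amino acids, and glutamine is a substrate of Slc1a5. Slc38a1 (SNAT1) and Slc38a2 (SNAT2) bring in glutamine and alanine with sodium, and Slc6a9 (GLYT1) brings in glycine. Several of these genes are known targets of ATF4, a transcription factor made when amino acids run short.

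On GRCm38, Slc3a2 lies at chr19:8706882-8723369, Slc7a5 at chr8:121881150-121907694, Slc7a11 at chr3:49892526-50443614, Slc7a1 at chr5:148327410-148399904 and Slc1a4 at chr11:20302180-20332713, all on the minus strand. Slc38a1 at chr15:96571418-96642913 and Slc38a2 at chr15:96687392-96699730 are minus-strand neighbours on 1 chromosome. Slc1a5 at chr7:16781340-16798274 and Slc6a9 at chr4:117834506-117875198 lie on the plus strand. RefSeq promoter windows on GRCm38.p6, each with 250 bases before the start and the 50 bases from it on, were matched for 6 of the 9 genes (9 windows) and not for Slc1a5, Slc7a5 or Slc38a1. The windows were searched on both strands for the composite element to which ATF4 binds with a C/EBP partner (CARE, TGATGNAA), for an AP-1 element (TGACTCA), for an antioxidant response element (ARE, TGACNNNGC) and for a core SOX element (AACAAT). No match found for one of them overlapped a match to another. CARE matched in 2 of the 9 windows and in 3.97% of 32851 RefSeq promoter windows of the same length. The 2 windows with a match are shown with the CARE letters in capitals. They are set against the Slc3a2 window, which belongs to a gene whose mRNA, like that of Slc1a4, was lower at W12 and has no match to any of the 4 elements. That window lies inside the Slc3a2 span given above and not at its minus-strand start (8723369). Elements elsewhere at this gene were not searched. All 3 are read 5′ to 3′ on the minus strand.
Slc7a11, chr3:50443564-50443863: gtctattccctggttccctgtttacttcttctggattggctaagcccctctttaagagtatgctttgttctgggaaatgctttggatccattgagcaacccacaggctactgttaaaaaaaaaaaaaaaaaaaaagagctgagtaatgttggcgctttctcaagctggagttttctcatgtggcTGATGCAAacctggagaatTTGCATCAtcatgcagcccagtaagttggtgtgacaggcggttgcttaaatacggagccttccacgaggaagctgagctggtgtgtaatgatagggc
Slc1a4, chr11:20332664-20332963: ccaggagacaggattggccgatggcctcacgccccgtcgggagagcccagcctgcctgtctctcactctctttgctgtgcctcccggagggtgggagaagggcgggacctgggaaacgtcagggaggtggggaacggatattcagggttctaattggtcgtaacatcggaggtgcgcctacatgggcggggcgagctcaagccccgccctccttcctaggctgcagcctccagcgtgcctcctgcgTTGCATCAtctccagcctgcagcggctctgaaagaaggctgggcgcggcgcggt
Slc3a2, chr19:8713848-8714147: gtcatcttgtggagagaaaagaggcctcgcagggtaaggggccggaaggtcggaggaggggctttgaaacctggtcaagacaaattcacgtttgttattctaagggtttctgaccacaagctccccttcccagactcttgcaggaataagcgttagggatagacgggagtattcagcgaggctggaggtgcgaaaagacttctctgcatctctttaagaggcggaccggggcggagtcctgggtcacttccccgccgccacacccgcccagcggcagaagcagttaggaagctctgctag
With the start base counted as 0, the Slc7a11 matches run from −66 to −59 and, on the opposite strand, from −47 to −40. The Slc1a4 match runs from −4 to 3 on the opposite strand, across the start. ARE matched in 4 of the 9 windows, a pair of them at Slc6a9, 1 at Slc7a1 and 1 at Slc38a2, and in 12.4% of all windows. The AP-1 element (5.2% of all windows) and the SOX element (10.7%) each matched in 1 window, in both cases at Slc7a1. A match describes the letters only, and binding was not measured here.

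The transgene's own entry (MYC-SOX9) stood at 89.6 and 45.6 TPM at D0 and between 606 and 3414 TPM in the 8 later libraries. TPM gives a gene's transcripts per length, relative to a total that is the same for every library, so the depth behind a value is unknown, and a lower TPM does not separate fewer transporter-expressing cells from less mRNA per cell. Against its male label, D0 replicate 2 held the X-inactivation transcript Xist (4.61 TPM, 0.00103 TPM in D0 replicate 1) and almost none of Ddx3y from the Y chromosome (0.0278 TPM, 32.1 TPM in D0 replicate 1). At W12 both were found in both libraries, with Xist at 5.51 and 3.50 TPM and Ddx3y at 10.97 and 12.9 TPM. The calls of the transporters against D0 and the counts of the gene lists at W6 and W12 are therefore also given without D0 replicate 2. Over all tested genes, the limma adjusted P against D0 was under 0.05 for 32.4% at W6 (18.3% higher and 14.1% lower). At W12 the share was 43.0% (17.9% higher and 25.1% lower). The 10 epidermal stem cell markers summed to between 35539 and 60641 TPM in every library, most of it from the basal keratins Krt14 and Krt5. Against D0, at a limma adjusted P under 0.05, 0 of the 10 were higher and 7 lower at W6 (0 and 6 without D0 replicate 2), and 2 higher and 6 lower at W12 (1 and 6 without it). Among those lower at both was Krt15, with 11241 and 11928 TPM at D0, 429 and 1350 TPM at W6, and 322 and 242 TPM at W12. At W12, 5 endothelial markers summed to 55.4 and 121 TPM, against 0.0598 to 1.49 TPM at D0 to W6. Pecam1, which encodes CD31 and was selected against in the sort, made up 26.1 and 59.8 TPM of this. Fabp4 stood at 166 and 256 TPM in the W12 libraries (2.63 TPM or less before), while the pan-leukocyte gene Ptprc stayed at 0.327 TPM or less throughout. The 8 immune markers summed to 104 and 128 TPM at W12 (28.8 TPM or less before), of which the antigen-presentation gene Cd74 made up 102 and 124 TPM, and the 6 melanocyte markers to 13.3 TPM or less in every library. The part of these other-cell transcripts in the W12 transporter levels was not tested. Of 6 fibroblast markers, Dcn reached 51.2 TPM in W6 replicate 2 against 1.46 TPM in replicate 1, and 13.2 and 27.2 TPM at W12, while the other 5 stayed at 1.08 TPM or less in every library. The 10 immediate-early genes summed to 26153 and 40481 TPM at D0 and to between 4870 and 11085 TPM later.

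Slc1a5 rose while Slc1a4, Slc3a2, Slc7a1 and Slc6a9 fell by W12. Of the 9 transporters, 7 had a mean of at least 1 TPM and were tested with limma on log2(TPM + 1), with Benjamini-Hochberg adjustment over 13110 genes. At W12 against D0, 5 of these 7 were called at an adjusted P under 0.05, 1 higher and 4 lower, where 43.0% of all tested genes were called (17.9% higher and 25.1% lower). Without D0 replicate 2, 3 of the 7 were called at W12, beside 28.5% of all genes: Slc1a4, Slc3a2 and Slc7a1, all lower. At W6 against D0, 3 of the 7 were called: Slc1a5 was higher, and Slc1a4 and Slc38a2 were lower. The background at W6 was 32.4% of all genes called, 18.3% higher and 14.1% lower, and without D0 replicate 2 only Slc1a5 was called there (2356 of all 13110 genes), while 3 were called without W6 replicate 2 (3474 genes) and 1 without W6 replicate 1 (3860 genes). At W1 and at W2 against D0, 0 of the 7 were called by limma with this adjustment, beside backgrounds of 9.89% and 15.7% (at W2, 9.06% higher and 6.64% lower). At each of these early timepoints 1 transporter, Slc1a5, had an unadjusted P under 0.05, as did 25.6% of all genes at W1 and 31.3% at W2. The F test over all timepoints called 6 of the 7, all but Slc7a5, against 57.5% of all genes. Each of these shares rests on 7 genes. The median log2 change of the 7 transporters from D0 was −0.09 for the W1 libraries, −0.36 for W2, −0.65 for W6 and −1.01 for W12, beside 0.09, 0.06, 0.08 and −0.08 over all tested genes. With D0 replicate 2 left out, the medians of the 7 were 0.11, −0.11, 0.22 and −0.72, so those at W1 and W6 turned their sign. Summed over the 9 genes, transporter mRNA stood at 445 and 680.2 TPM at D0, 527 and 446 TPM at W1, 403 and 429.9 TPM at W2, 361 and 374 TPM at W6, and 272 and 337 TPM at W12.

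**Figure D1:**
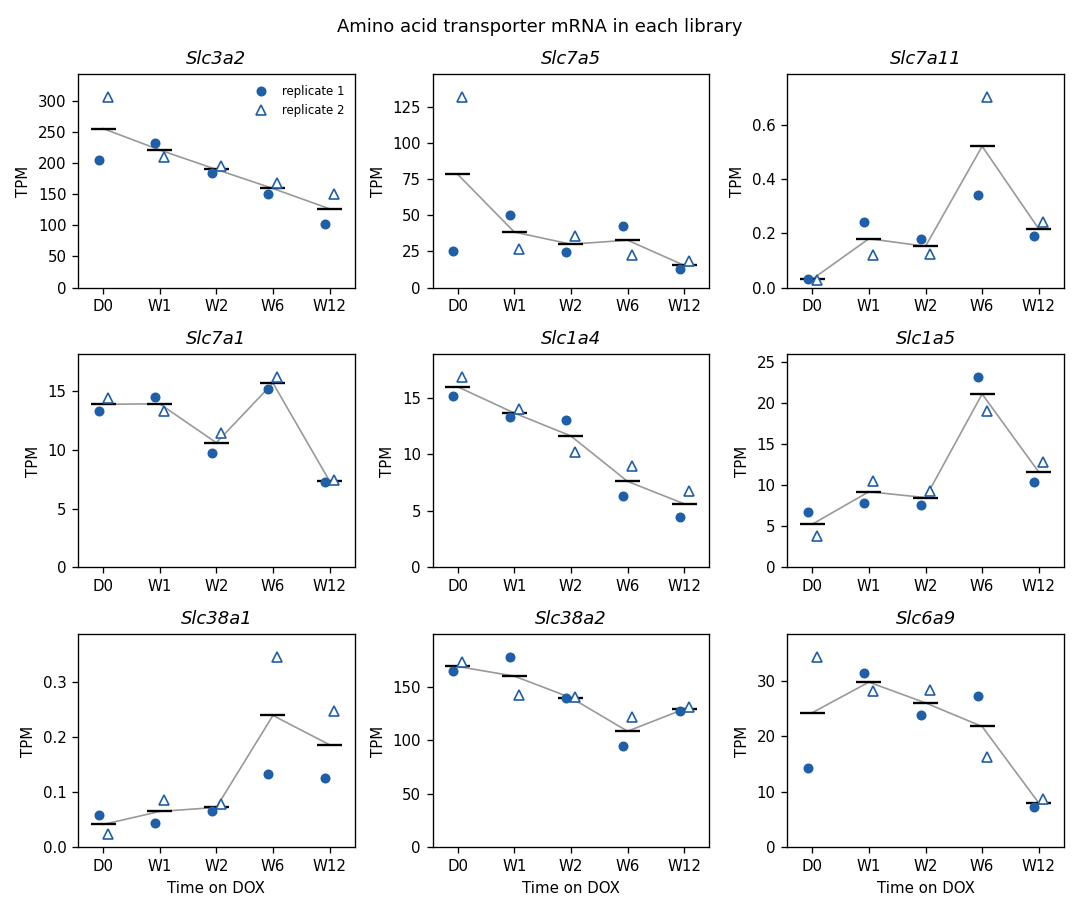
TPM of the 9 transporters (y axis, a scale of its own for each gene) in each library by time on DOX (x axis, 5 timepoints spaced evenly), with circles for replicate 1, triangles for replicate 2 and bars for the mean of both. Slc1a5 peaked at W6 at 19.1 and 23.1 TPM, Slc1a4 and Slc3a2 had lower means at each later timepoint, and both Slc7a11 and Slc38a1 stayed under 1 TPM.

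Slc3a2, the heavy chain, was the most abundant of the 9 by its mean over all libraries (191 TPM). It measured 206 and 306 TPM at D0, 232 and 211 TPM at W1, 185 and 195 TPM at W2, 151 and 168 TPM at W6, and 102 and 151 TPM at W12. From W2 on, both libraries of each timepoint lay below both D0 libraries, while W1 overlapped D0. The W12 level was a log2 change of −1.01 from D0 (SE 0.23, limma adjusted P = 0.00812). Without D0 replicate 2 this change was −0.72 (limma adjusted P = 0.0469), and without W12 replicate 1 it was −0.73 and was not called (limma adjusted P = 0.0646). At W6 the log2 change was −0.65 and was not called (limma adjusted P = 0.0573). It was −0.37 without D0 replicate 2 (limma adjusted P = 0.303) and −0.94 without D0 replicate 1, where it was called (limma adjusted P = 0.0136). The W6 change was also called with median-ratio or quantile scaling, after each library was levelled within bins of transcript length, with the replicate number as a block and without either W12 library (limma adjusted P = 0.0281 to 0.0468).

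Slc7a5, the leucine-carrying light chain, had the largest standard error of the 7 tested transporters. Its levels were 24.9 and 131 TPM at D0, 50.2 and 26.5 TPM at W1, 24.5 and 35.3 TPM at W2, 42.8 and 22.7 TPM at W6, and 12.6 and 17.98 TPM at W12. D0 replicate 2 stood far above every other library, and W12 was the only timepoint with both libraries below both of D0. The log2 change at W12 was −1.87 (SE 0.67). It missed the threshold (limma adjusted P = 0.0519), but not with only genes of a mean of at least 5 TPM tested. It was −0.69 without D0 replicate 2 (limma adjusted P = 0.318) and −3.04 without D0 replicate 1 (limma adjusted P = 0.00198). Without D0 replicate 2 the differences from D0 at W1, W2 and W6 turned positive (log2 0.53, 0.23 and 0.31). The D0 level of Slc7a5 thus rested on 1 library.

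Slc7a11, the cystine carrier, was barely detected. D0 libraries listed it at 0.0329 and 0.0287 TPM, W1 at 0.241 and 0.119 TPM, W2 at 0.180 and 0.124 TPM, W6 at 0.340 and 0.701 TPM, and W12 at 0.191 and 0.241 TPM. All 8 later libraries lay above both D0 libraries, but every value was under 1 TPM and the gene was not in the tested set. With all genes above 0 TPM tested, the W6 difference from D0 was 0.55 on the log2 scale (SE 0.13, limma adjusted P = 0.0478), and 0 of the other 6 comparisons or the F test (adjusted P = 0.127) passed. The window that holds a pair of CARE matches thus belongs to a gene that stayed below 1 TPM in every library.

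Set against the heavy chain, Slc7a5 mRNA was 0.121 and 0.429 of Slc3a2 mRNA at D0, and 0.124 and 0.119 at W12. A light chain outside the 9 genes, Slc7a6 (y+LAT2), which exchanges arginine for neutral amino acids, was the larger share before W6. The ratio of Slc7a6 to Slc3a2 was 0.534 and 0.576 at D0, 0.616 and 0.601 at W1 and 0.607 and 0.598 at W2. It was then 0.175 and 0.188 at W6, and 0.170 and 0.102 at W12, so the 6 libraries up to W2 did not overlap the 4 later ones. Slc7a6 itself went from 110 and 176 TPM at D0 to 26.3 and 31.6 TPM at W6 and 17.4 and 15.4 TPM at W12. Its log2 changes from D0 were −2.23 at W6 (SE 0.22, limma adjusted P = 0.000258) and −3.01 at W12 (SE 0.22, limma adjusted P = 3.16e-05). Summed over 6 light chains, the ratio to Slc3a2 had means of 0.833, 0.782 and 0.767 up to W2, then 0.403 at W6 and 0.289 at W12. Within that sum, Slc7a6 made up 81.1% and 57.2% at D0 and 53.7% and 39.0% at W12.

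**Figure D2:**
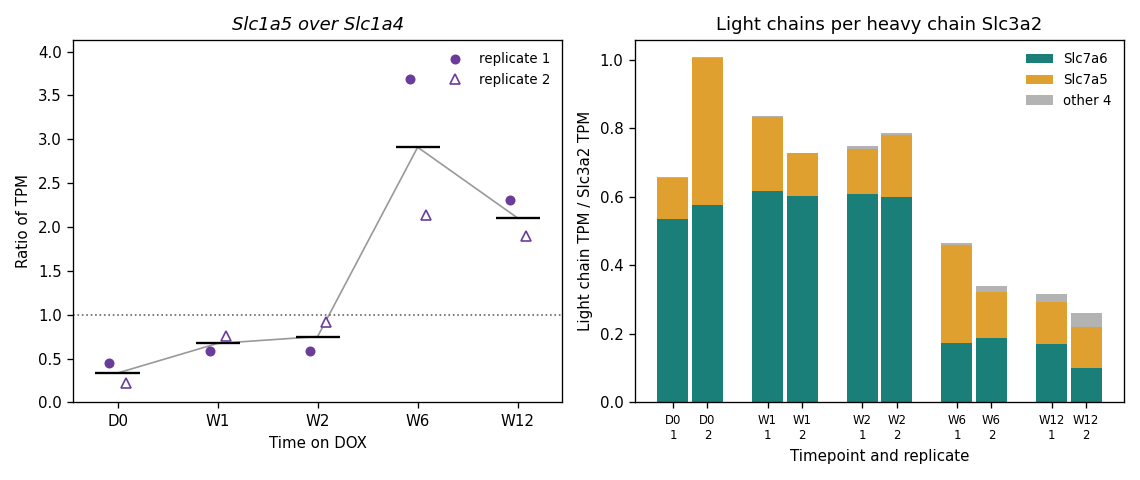
Left, TPM of Slc1a5 divided by TPM of Slc1a4 in each library by time on DOX (circles, replicate 1, triangles, replicate 2, bars, mean, dotted line, a ratio of 1). Right, TPM of 6 light chains divided by TPM of the heavy chain Slc3a2 in each library, stacked as Slc7a6, Slc7a5 and the other 4 (Slc7a7, Slc7a8, Slc7a10 and Slc7a11), with sums between 0.659 and 1.01 at D0 and between 0.261 and 0.316 at W12.

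Slc7a1, the carrier of cationic amino acids, had the closest replicates of the 9 at W12 relative to its level. It measured 13.3 and 14.4 TPM at D0, 14.5 and 13.3 TPM at W1, 9.75 and 11.4 TPM at W2, 15.2 and 16.1 TPM at W6, and 7.25 and 7.42 TPM at W12. The W12 libraries were the lowest of all 10 and the W6 libraries the highest. The fall from W6 to W12 was a log2 change of −0.998 (SE 0.16, limma adjusted P = 0.00456). Against D0 the W12 change was −0.83 (SE 0.16, limma adjusted P = 0.00377), and it was −0.78 without D0 replicate 2 (limma adjusted P = 0.020). Genes with longer transcripts tended to be lower at W12 against D0 (Spearman rho = −0.316 across 13099 genes, which are not independent replicates), and the longest Slc7a1 transcript has 7179 bases. After each library was levelled within 20 bins of transcript length, the W12 change of Slc7a1 from D0 was −0.32 and was not called (limma adjusted P = 0.129).

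Slc1a4 and Slc1a5, the paired exchangers of the Slc1 family, moved in opposite directions. Slc1a4 had 15.1 and 16.8 TPM at D0, 13.3 and 14.0 TPM at W1, 13.0 and 10.2 TPM at W2, 6.27 and 8.93 TPM at W6, and 4.50 and 6.75 TPM at W12. Each timepoint after D0 lay below both D0 libraries, and both W6 and W12 lay below every earlier library while overlapping each other. The log2 change from D0 was −0.99 at W6 (SE 0.24, limma adjusted P = 0.0135) and −1.38 at W12 (SE 0.24, limma adjusted P = 0.00226). Without D0 replicate 2 the W12 change was −1.30 (limma adjusted P = 0.0162). The W6 change was −0.92 without D0 replicate 2 (limma adjusted P = 0.0701) and −0.77 without W6 replicate 1 (limma adjusted P = 0.058), so the W6 call depended on these libraries.

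Slc1a5, which takes up glutamine, had 6.75 and 3.78 TPM at D0, 7.86 and 10.6 TPM at W1, 7.65 and 9.34 TPM at W2, 23.1 and 19.1 TPM at W6, and 10.4 and 12.8 TPM at W12. All 8 later libraries lay above both D0 libraries, and the W6 libraries lay above all others. The rise at W6 was a log2 change of 1.85 from D0 (SE 0.27, limma adjusted P = 0.00155), and it was 1.51 without D0 replicate 2 (limma adjusted P = 0.00848). From W2 to W6 the log2 change was 1.22 (SE 0.27, limma adjusted P = 0.0218). This was the only transporter of the 7 called between these timepoints, where 16.3% of all genes were called and 7.99% were higher. The Slc1a5 call was lost without W6 replicate 1 (log2 change 1.08) and without W2 replicate 1 or replicate 2 (1.09 and 1.35). Each of these fits leaves 1 library at a timepoint. At W12 Slc1a5 was still 1.04 above D0 on the log2 scale (SE 0.27, limma adjusted P = 0.0137). That call was lost without D0 replicate 2 (log2 change 0.70, limma adjusted P = 0.0809) and without W12 replicate 2 (0.90, limma adjusted P = 0.0911). The W12 level was 0.81 below W6 on the log2 scale and was not called (limma adjusted P = 0.0642).

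The ratio of Slc1a5 to Slc1a4 mRNA sums up the pair. It was 0.446 and 0.225 at D0, 0.592 and 0.755 at W1, 0.588 and 0.915 at W2, 3.69 and 2.13 at W6, and 2.31 and 1.90 at W12. Slc1a4 was the more abundant of the pair in all 6 libraries up to W2, and Slc1a5 was in all 4 libraries at W6 and W12.

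Slc38a2, a sodium-coupled carrier of glutamine and alanine, was next to Slc3a2 in abundance and had the smallest ratio of highest to lowest value of the 9 (94.7 to 177 TPM). Its levels were 164 and 173 TPM at D0, 177 and 142 TPM at W1, 139 and 140.0 TPM at W2, 94.7 and 122 TPM at W6, and 127 and 131 TPM at W12. W2, W6 and W12 lay below both D0 libraries, with W6 the lowest, and W1 overlapped D0. The fall at W6 was a log2 change of −0.65 (SE 0.16, limma adjusted P = 0.0172). It was not called without D0 replicate 2 (−0.61, limma adjusted P = 0.0675) or without W6 replicate 1 (−0.46, limma adjusted P = 0.0714), nor after levelling by transcript length (−0.37, limma adjusted P = 0.128). At W12 the difference from D0 was −0.38 (limma adjusted P = 0.0854). It was called with quantile normalization and without W6 replicate 1, and it turned to 0.23 after levelling by length. Its neighbour Slc38a1 ranged from 0.0247 TPM at D0 to 0.344 TPM at W6 and was not in the tested set. The D0 libraries had 0.0584 and 0.0247 TPM, and the W6 and W12 libraries had 0.125 to 0.344 TPM, above all 6 earlier libraries. With all genes above 0 TPM tested, the W6 difference of Slc38a1 from D0 was 0.25 on the log2 scale (limma adjusted P = 0.158).

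Slc6a9, the glycine carrier, had 14.3 and 34.2 TPM at D0, 31.4 and 28.1 TPM at W1, 23.8 and 28.2 TPM at W2, 27.3 and 16.3 TPM at W6, and 7.24 and 8.76 TPM at W12. Both W12 libraries lay below the other 8, and the other timepoints overlapped D0. The fall at W12 was a log2 change of −1.37 from D0 (SE 0.37, limma adjusted P = 0.0176) and of −1.30 from W6 (SE 0.37, limma adjusted P = 0.0405). The call against W6 was lost under most alternatives, among them without W6 replicate 1 (−0.94, limma adjusted P = 0.183) and without either W12 library. The change from D0 was −0.77 without D0 replicate 2 and was not called (limma adjusted P = 0.0934). Leaving out W12 replicate 1 or replicate 2 also ended that call (limma adjusted P = 0.1003 and 0.0601). Slc6a9 and Slc7a1 were the 2 transporters of 7 called between W6 and W12, both lower, beside 20.2% of all genes called and 13.5% lower. Between W1 and W2, 0 of the 7 were called by limma, 1 had an unadjusted P under 0.05 (14.5% of all genes did), and 0.114% of all genes were called.

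**Figure D3:**
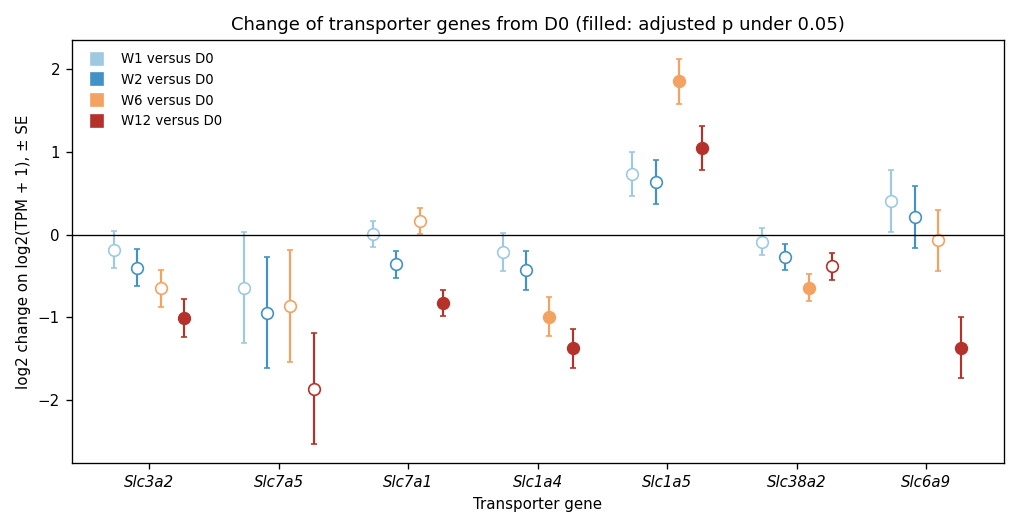
Log2 change from D0 (y axis, on log2(TPM + 1), points with bars of 1 SE) for the 7 tested transporters (x axis) in the order W1, W2, W6, W12, with filled points at a limma adjusted P under 0.05. Only W6 and W12 have filled points, and Slc1a5 is the only gene with filled points above 0, at 1.85 and 1.04.

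By mean TPM, the order at D0 was Slc3a2 (256), Slc38a2 (169), Slc7a5 (78.2), Slc6a9 (24.2), Slc1a4 (16.0), Slc7a1 (13.9) and Slc1a5 (5.26), with Slc38a1 and Slc7a11 at the bottom. Only Slc3a2 and Slc38a2 lay above 150 TPM in both D0 libraries. Slc7a5 overlapped Slc6a9 in their D0 replicates, and Slc6a9 overlapped Slc1a4 and Slc7a1, so these neighbours did not differ beyond their spread. At W12 the order was Slc38a2 (129), Slc3a2 (127), Slc7a5 (15.3), Slc1a5 (11.6), Slc6a9 (7.997), Slc7a1 (7.34) and Slc1a4 (5.62). Slc38a2 and Slc3a2 overlapped there, as did Slc7a5 with Slc1a5 and Slc6a9 with Slc7a1. Slc1a5 thus stood last of the 7 by mean at D0 but above Slc6a9, Slc7a1 and Slc1a4 at W12, and at W6 it overlapped Slc6a9 and Slc7a5.

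Some amino acid transporters outside these 9 changed by more. Of 30 further carriers listed, 17 were tested. Against D0, 4 were higher and 2 lower at W2, 4 higher and 5 lower at W6, and 6 higher and 7 lower at W12. Slc43a3 and Slc7a7, among the 6 higher at W12, reached a mean of 1 TPM only through the W12 libraries. Their calls are thus no support for a rise of carriers. The counts of this and the following lists stand beside 15.7%, 32.4% and 43.0% of all genes called at W2, W6 and W12. For the 17 carriers they were 3 and 1, 4 and 3, and 4 and 5 without D0 replicate 2, where 10.9% of all genes were called at W2. Slc43a2 (LAT4), a leucine carrier without a heavy chain, had 1.88 and 3.91 TPM at D0, 54.6 and 56.3 TPM at W1, 85.7 and 96.5 TPM at W2, 30.4 and 13.9 TPM at W6, and 6.48 and 6.30 TPM at W12. W1 and W2 stood above every other timepoint, and the log2 change from D0 was 3.91 at W1 (limma adjusted P = 0.000431) and 4.61 at W2 (limma adjusted P = 0.000135). At W2 Slc43a2 was above Slc7a5 in both libraries, and at D0 and W12 it was below. Slc6a20a, a proline carrier, went from 0.637 and 0.589 TPM at D0 to 7.65 and 5.57 TPM at W6 (log2 change 2.22, limma adjusted P = 0.000245). Slc43a3, known as a carrier of purine bases rather than of amino acids, was at 0.625 TPM or less up to W6 and at 5.38 and 8.16 TPM at W12, in the libraries that also held endothelial transcripts. It reached a mean of 1 TPM only through these libraries, so no test is given for it. The counts above of carriers tested and of those higher at W12 do include it.

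Atf4 mRNA was highest at D0. It stood at 427 and 579 TPM at D0, 182 and 150 TPM at W1, 134 and 123 TPM at W2, 152 and 138 TPM at W6, and 199 and 220.5 TPM at W12. All 8 later libraries lay below both D0 libraries, with log2 changes of −1.58 at W1 (limma adjusted P = 0.00121), −1.95 at W2 (limma adjusted P = 0.000363) and −1.24 at W12 (limma adjusted P = 0.000898). The summed immediate-early genes, given above, were likewise highest at D0. ATF4 acts after translational control, and its protein was not measured in these libraries. Of Atf4 and 19 genes listed as its targets, 19 in all were tested, of which 4 were higher and 5 lower at W6 (3 and 4 without D0 replicate 2), and 5 higher and 5 lower at W12 (5 and 2 without it, and 5 and 3 after levelling by transcript length). Asns, which makes asparagine, rose from 44.1 and 29.2 TPM at D0 to 94.7 and 102 TPM at W6 (log2 change 1.43, limma adjusted P = 0.00121) and 96.0 and 113 TPM at W12 (1.51, limma adjusted P = 0.000553). Eif4ebp1, a repressor of cap-dependent translation, rose by 1.58 at W6 (limma adjusted P = 0.000644) and 1.73 at W12 (limma adjusted P = 0.000239) on the log2 scale. Nupr1, a stress-induced chromatin protein, had 42.5 and 29.0 TPM at D0 and 329 and 554 TPM at W12 (log2 change 3.57, limma adjusted P = 2.84e-05).

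**Figure D4:**
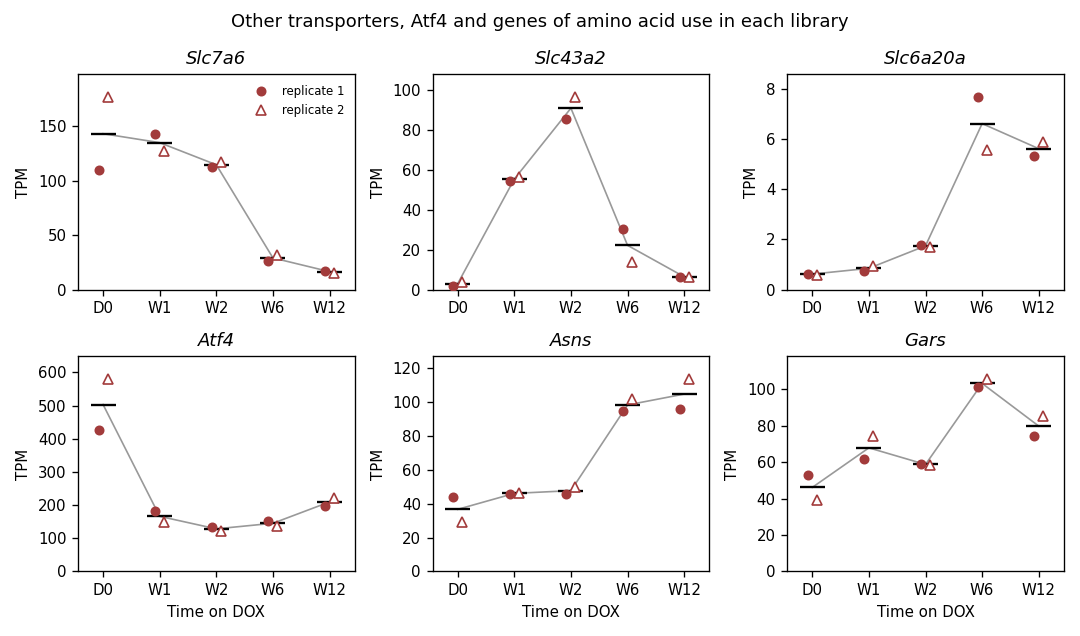
TPM (y axis, a scale of its own for each gene) of 3 further transporters, Atf4, Asns and Gars in each library by time on DOX (x axis, 5 timepoints spaced evenly), with circles for replicate 1, triangles for replicate 2 and bars for the mean. Slc7a6 was at 26.3 to 31.6 TPM by W6, Slc43a2 peaked at W2 and Atf4 was highest at D0.

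Genes that use the imported amino acids were examined from fixed lists. Of 20 cytosolic aminoacyl-tRNA synthetases, which charge tRNAs with amino acids, 10 were higher and 0 lower at W6 against D0, with a median log2 change of 0.61 beside 0.08 over all genes. Without D0 replicate 2, 4 were higher (median 0.42, with 2356 of all 13110 genes called), and without W6 replicate 2, 6 were (3474 genes called). At W12, 6 were higher and 1 (Wars) was lower, and without D0 replicate 2 the counts were 4 and 0. After levelling by transcript length, 11 were higher and 0 lower at W12 (median 0.49), where 43.8% of all genes were called. Gars, the glycine enzyme, had 53.1 and 39.3 TPM at D0 and 101 and 106 TPM at W6 (log2 change 1.16, limma adjusted P = 0.00189). Hars, the histidine enzyme, changed by 1.12 at W6 (limma adjusted P = 0.00173), while Nars rose by 0.94 and Rars by 0.91 at W12 (limma adjusted P = 0.00255 and 0.00512). Of 6 genes of serine and glycine synthesis, 4 were higher and 0 lower at W6, and 1 was higher and 1 lower at W12. With D0 replicate 2 left out, the counts were 3 and 0 at W6 and 1 and 2 at W12. Psph, the last enzyme of serine synthesis, went from 74.5 and 35.4 TPM at D0 to 266 and 249 TPM at W6 (log2 change 2.30, limma adjusted P = 0.000699). Psat1, which acts just before it, had a log2 change of 1.28 at W6 (limma adjusted P = 0.00537), Shmt1 had 0.52 (limma adjusted P = 0.038) and Phgdh had −0.59 at W12 (limma adjusted P = 0.0367). The calls of Shmt1 and Phgdh were lost under several alternatives, with adjusted P values up to 0.178 and 0.154 when 1 library was left out. The glycine carrier Slc6a9 overlapped D0 at W6.

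Of 8 genes of glutamine and glutamate metabolism, 2 were higher and 2 lower at W6, and 1 was higher and 4 lower at W12. With D0 replicate 2 left out, the counts were 2 and 2 at W6 and 0 and 3 at W12, and the median log2 change at W12 was −0.16 instead of −0.51. Gls2, which converts glutamine to glutamate, was at 1.35 and 0.868 TPM at D0 and 4.34 and 7.49 TPM at W6 (log2 change 1.69, limma adjusted P = 0.00298). Gpt, an alanine transaminase, was lower at W6 by −2.09 and at W12 by −1.58 on the log2 scale (limma adjusted P = 0.000112 and 0.000236), and Got2 was higher at W6 by 0.94 (limma adjusted P = 0.00467). Gls2 and Slc1a5 were thus both higher at W6.

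Of 25 genes of amino acid sensing by mTORC1, 22 were tested, with 2 higher and 3 lower at W6, and 2 higher and 6 lower at W12, shares below the 32.4% and 43.0% of all genes called. By limma without D0 replicate 2, 0 of the 22 were called at W6, and 2 were higher and 4 lower at W12. Rptor, the scaffold of the complex, had a log2 change of −1.13 at W12 (limma adjusted P = 0.00375), Tsc2 had −1.16 (limma adjusted P = 0.008) and Tsc1 had −0.63 (limma adjusted P = 0.0178). The Tsc1 and Tsc2 calls were lost after levelling by transcript length (−0.12 and −0.54) and without W12 replicate 1 (limma adjusted P = 0.0891 and 0.0658), and that of Tsc2 also without D0 replicate 2 (limma adjusted P = 0.0527). Sesn1, a leucine sensor of the sestrin family, was higher at W2 by 0.97 (limma adjusted P = 0.00463, and 0.0609 without W2 replicate 2). Of 7 genes of glutathione synthesis, for which Slc7a11 supplies cysteine, 6 were tested, and 2 were higher and 1 lower at W12 (2 and 0 without D0 replicate 2). Gclm, a subunit of the rate-limiting enzyme, had 41.8 and 26.0 TPM at D0, 153 and 152 TPM at W6 and 77.0 and 105 TPM at W12 (log2 changes 2.18 and 1.42, limma adjusted P = 0.000345 and 0.0015). Ggct, which opens gamma-glutamyl peptides, rose by 2.41 at W12 (limma adjusted P = 0.00358), and Keap1, the repressor of NRF2, had a log2 change of −0.63 there (limma adjusted P = 0.0169), which was not called without D0 replicate 2 (limma adjusted P = 0.0681) or after levelling by length (−0.26, limma adjusted P = 0.2696). Gss, the last enzyme of the pathway, had 0.38 at W12 and was not called (limma adjusted P = 0.0878).

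Of 10 genes of transporter ubiquitination and trafficking, 4 were higher and 0 lower at W2, 2 higher and 3 lower at W6, and 3 higher and 4 lower at W12. With D0 replicate 2 left out, the counts were 1 and 0 at W2, 2 and 3 at W6, and 2 and 4 at W12. Txnip, an arrestin that promotes internalisation of nutrient transporters, went from 439 and 842 TPM at D0 to 53.4 and 116 TPM at W6 and 74.8 and 57.2 TPM at W12 (log2 change −3.20 at W12, limma adjusted P = 0.000625). Nedd4l, a ubiquitin ligase of membrane proteins, fell by 1.63 and Arrdc3, an arrestin adaptor, fell by 1.68 on the log2 scale at W12 (limma adjusted P = 0.000446 and 0.00434). Sgk1, a kinase that inhibits Nedd4l, went from 71.0 and 70.1 TPM at D0 to 335 and 316 TPM at W2 (log2 change 2.19, limma adjusted P = 0.00029).

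For the 2 transporters with the smallest P of the F test, the genes with the most similar course were listed by Pearson r of log2(TPM + 1) over the same 10 libraries. Slc1a5 was most like Bod1 (r = 0.985), Entpd7 (r = 0.978) and the tRNA synthetase gene Gars (r = 0.974). Slc7a1 was most like Mrpl10 (r = 0.968), Pigb (r = 0.950) and Cop1 (r = 0.936). The points are the 5 timepoints with 2 libraries each and the genes were the highest of 13110, so these values describe likeness of course only.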

How the data were processed

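The 10 time-course libraries were made with a low-input SMARTer kit and sequenced on NovaSeq per the study's methods, where the labels give NextSeq or NovaSeq. The authors trimmed reads with Skewer, quantified transcripts with Salmon 1.4.0 against a GENCODE index of GRCm38 with the transgene added, and summed them to genes with Tximport 1.12.3, and they deposited TPM, which carry no depth. Replicates were biological replicates per the labels. P values measure the spread between 2 libraries per timepoint, pooled over all timepoints. The placode table holds the authors' own comparison (mean normalized counts, fold changes, statistics and p-values) and was not used. The study's DESeq2 test could not be run on TPM.

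The 13110 genes whose mean reached 1 TPM were fitted on log2(TPM + 1) with limma 3.58.1 in R 4.3.3, using timepoint means over all 10 libraries, eBayes with trend and Benjamini-Hochberg adjustment. A log2 change on this scale understates that of low genes. Of each list, up to 4 genes with the smallest F-test P, plus Atf4, were named. A named gene of 1 list is not reported here. The transporters and lists were chosen with earlier results of these data known. Where a symbol had more than 1 row, the row with the higher mean was kept, and Mars was matched as Mars1. The fit was tested on simulated data. Alternatives were a pseudocount of 0.1, other filters, median-ratio and quantile scaling, eBayes without trend, only the 4 libraries compared, a replicate block and each library left out. Levelling by transcript length and a crossed block were added after seeing the data. Positions are from GENCODE and promoters from RefSeq.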

Additional observations from a re-analysis of the deposited data

How the results depend on the processing

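Against D0, Slc1a4 at W12 and Slc1a5 at W6 kept their calls under every alternative run, Slc7a1 at W12 under all but levelling by transcript length, and 0 members were called between W1 and W2 under any. With only the 4 libraries compared in the fit, the number of members called was 1 at W6 against D0 (1094 genes in all, against 4251). It was 2 at W12 against D0 (3940 genes, against 5642) and 0 between W6 and W12 (887 genes, against 2642). With all 38965 genes above 0 TPM tested it was 0 from W2 to W6 (940 genes) and 1 from W6 to W12 (2425 genes). By the F test it was 3 there (6322 genes, against 7541 of 13110). From W2 to W6 it was 2 with a mean of at least 5 TPM (1894 of 9932 genes), quantile normalization (2288 genes) or levelling by length (2344 genes). From W6 to W12 it was 1 with median-ratio scaling (2128 genes), quantile normalization (2334 genes) or the replicate block (2163 genes). With 1 library left out, the count against D0 ranged from 0 to 2 at W1 and at W2, from 1 to 5 at W6 (2356 to 5047 genes in all) and from 3 to 6 at W12 (3362 to 6291 genes), from 0 to 2 for W2 to W6 (207 to 3179 genes), from 1 to 3 for W6 to W12 (761 to 3223 genes) and from 3 to 6 for the F test. Over all genes, the count at W1 was 1296, but 606 with every gene tested, 411 with 4 libraries and 377 to 1773 with 1 library left out, and at W2 it was 2058, but 1011, 1086 and 652 to 2647. Between W1 and W2, 15 genes were called, 80 with 4 libraries, 6 with the block and 0 to 83 with 1 library left out. From W2 to W6 2137 were called, but 940 with every gene tested, 966 with 4 libraries and 1396 with the block, and from W6 to W12 2642, but 887 with 4 libraries.

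Some changes turned their sign under an alternative, and not only when a D0 library was left out. Slc7a1 at W1 was 0.0031 on the log2 scale but −0.093 with median-ratio scaling, −0.053 with quantile normalization, −0.12 levelled by length and −0.054 to 0.060 with 1 library left out, and Slc38a2 at W12 was 0.23 levelled by length. With 1 library left out, Slc7a5 ranged against D0 from −1.82 to 0.53 at W1, −2.12 to 0.23 at W2 and −2.04 to 0.31 at W6, from −0.75 to 0.15 between W1 and W2, and from −0.36 to 0.52 between W2 and W6. Slc6a9 ranged from −0.20 to 1.01 at W1, −0.39 to 0.82 at W2, −0.67 to 0.53 at W6 and −0.64 to 0.071 between W2 and W6, Slc38a2 from −0.25 to 0.072 and Slc3a2 from −0.47 to 0.11 at W1, and Slc1a5 from −0.29 to 0.093 between W1 and W2. The ratio of light to heavy chains was 0.275 (D0), 0.171 (W1), 0.157 (W2), 0.209 (W6) and 0.121 (W12) with Slc7a5 alone and 0.833, 0.782, 0.767, 0.403 and 0.289 with 6 light chains. Where no construction of the alternative shows a cause, the cause was not tested.

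Replicate numbers did not pair the libraries, since the deviations of same-numbered libraries correlated between −0.129 and 0.182. The replicate block ended the call of Slc6a9 from W6 to W12, brought that of Slc3a2 at W6 (adjusted P = 0.0462) and changed no other call of a member between timepoints, while the F test called 5 with it. With crossed numbers, fitted for W1 and W6 against D0 and for W6 to W12, 0 of 21 member results changed their call. Depth is unknown for every value, and with 2 libraries per timepoint the spread is borrowed from the other timepoints.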
